A study of Mus musculus with 6 samples.

Results

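The genes described here are 9 genes of the endoplasmic reticulum unfolded protein response (Hspa5, Hsp90b1, Herpud1, Creld2, Manf, Sdf2l1, Xbp1, Dnajb9 and Edem1) together with Crebrf, 10 genes of the 55536 in the count table. They were taken by symbol, and each symbol matched 1 Ensembl gene. Crebrf was selected on its small p in the comparison of treated with untreated tumours, and the other genes were chosen with the fold changes of that comparison known. Their differences between the groups are therefore a description, with no p-value, and counts of members past a threshold are shown only beside the share of all genes.

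RNA was sequenced from liver tumours of 3 TSDP mice and 3 Control mice. TSDP mice received a nanoparticle that carried DNIC, a dinitrosyl iron complex that releases nitric oxide, and sorafenib, a kinase inhibitor, in 6 intravenous injections from day 10 to day 23. Control mice are labelled as untreated, and whether they received an empty carrier is not given in the sources used here. All animals were male C3H mice, 6 to 8 weeks old at implantation of 1000000 HCA-1 cells, a single mouse hepatocellular carcinoma line, under the liver capsule, and every tumour was taken on day 24. The design therefore does not separate sorafenib from DNIC or from the carrier.

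The endoplasmic reticulum folds the proteins that a cell secretes or puts in its membranes. When unfolded proteins build up there, the sensors IRE1, PERK and ATF6 become active, and chaperones and degradation factors are induced. IRE1 splices Xbp1 mRNA into the form that encodes an active transcription factor, ATF6 is cut to release one, and PERK slows translation and favours ATF4 and CHOP. Hepatocytes secrete most plasma proteins and depend on this system. Gene counts do not separate spliced from unspliced Xbp1 mRNA.

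ATF6 and XBP1 act through short promoter sites called endoplasmic reticulum stress elements, and 4 of the 10 genes held an exact match near their start. The windows below are from RefSeq (GRCm38.p6), 250 bases before to 50 bases after the start, 5′ to 3′ on the strand of the gene. They are shown because the exact matches in Herpud1 and in the others, set side by side below, are to different forms of the element. Capitals mark each match on either strand to ERSE, which is CCAAT and CCACG with any 9 bases between them, or to ERSE-II, which is ATTGG and CCACG with any 1 base between them. Hspa5 is at chr2:34771840-34772139 on the plus strand, Hsp90b1 at chr10:86705395-86705694 on the minus strand, Creld2 at chr15:88819396-88819695 on the plus strand and Herpud1 at chr8:94386179-94386478 on the plus strand.
Hspa5: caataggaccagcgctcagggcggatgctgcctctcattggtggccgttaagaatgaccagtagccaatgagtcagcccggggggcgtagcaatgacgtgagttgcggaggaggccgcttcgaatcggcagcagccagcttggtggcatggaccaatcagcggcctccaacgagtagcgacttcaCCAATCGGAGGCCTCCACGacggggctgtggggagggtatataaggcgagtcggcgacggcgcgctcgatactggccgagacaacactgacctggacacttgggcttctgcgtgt
Hsp90b1: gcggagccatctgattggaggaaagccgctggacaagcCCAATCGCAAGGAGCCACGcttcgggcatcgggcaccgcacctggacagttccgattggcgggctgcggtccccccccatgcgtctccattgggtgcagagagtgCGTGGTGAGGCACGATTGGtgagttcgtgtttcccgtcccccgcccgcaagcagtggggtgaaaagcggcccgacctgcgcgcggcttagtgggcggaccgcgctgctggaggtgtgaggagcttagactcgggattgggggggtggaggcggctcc
Creld2: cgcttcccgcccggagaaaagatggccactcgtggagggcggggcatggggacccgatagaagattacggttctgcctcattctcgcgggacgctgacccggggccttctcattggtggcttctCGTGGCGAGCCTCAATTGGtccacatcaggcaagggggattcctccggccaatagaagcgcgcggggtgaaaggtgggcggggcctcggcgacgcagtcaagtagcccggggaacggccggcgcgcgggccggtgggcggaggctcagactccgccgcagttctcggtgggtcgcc
Herpud1: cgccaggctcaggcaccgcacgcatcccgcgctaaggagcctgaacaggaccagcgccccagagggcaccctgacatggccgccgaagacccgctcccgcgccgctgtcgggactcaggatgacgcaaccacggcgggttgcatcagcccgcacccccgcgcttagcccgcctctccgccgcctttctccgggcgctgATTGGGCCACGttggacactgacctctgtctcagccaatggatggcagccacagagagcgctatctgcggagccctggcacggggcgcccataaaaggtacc

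The Hspa5 match ran from -65 to -47 relative to the start. Hsp90b1 held 2, from -212 to -194 and, on the opposite strand, from -107 to -89. Creld2 held 1 on the opposite strand from -126 to -108. Herpud1 was the member with an exact ERSE-II match, from -52 to -42, and had no exact ERSE match. Near matches were not searched for, and the windows of Herpud1 and Creld2 hold near matches to the other form. ERSE occurred in 39 of 32851 promoter windows (0.119%) and ERSE-II in 12 (0.0365%), and no 2 matches in the members overlapped. The windows of Edem1, Xbp1, Dnajb9, Sdf2l1 and Crebrf held neither, which says only that these letters are not in those windows. TGACGTGG, the core of the XBP1 and ATF6 site UPRE, and TGACGTCA, the cyclic AMP response element, were in 0 of the 9 member windows, against 0.676% and 1.79% of all windows. The table has a window for 9 members, without Manf. The search for every motif used both strands.

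Total counts ran from 36376925 to 36629665 in TSDP and from 32130808 to 38953397 in Control. Member counts ran from 1050 for Sdf2l1 in Control 3, a counting error of 3.09%, to 71509 for Hspa5 in Control 5. Libraries stood apart in RNA of other tissues. The 20 hepatocyte markers took 3.43%, 6.23% and 2.14% of counts in TSDP 1, 2 and 5, and 0.0114%, 2.47% and 0.432% in Control 3, 4 and 5, with means of 3.93% ± 2.09 and 0.972% ± 1.32 (SD, n = 3 each, exact two-sided permutation p = 0.2, where 0.1 is the smallest that 3 against 3 allow). None of the 20 was at 0 in Control 3, where they ran from 0.216 to 62.7 CPM (counts scaled to a library of 1000000). A list of 15 pancreatic acinar genes, chosen after the data were seen, summed to 16566 CPM in Control 4, 1.68% of its counts, and to at most 18.8 CPM in each other library. Acinar cells are secretory cells rich in endoplasmic reticulum, and 7 to 9 of the 15 genes were at 0 in every TSDP library and in Control 3, but 1 in Control 5. Haemoglobin and other erythroid markers summed to 648.7 CPM in Control 3, against 15.1 to 52.6 CPM in the other 5. In bulk tissue, fewer cells of a type and less RNA per cell cannot be told apart.

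In TSDP tumours 8 of the 10 genes lay within 0.24 of Control on the log2 scale, while the mean of Herpud1 stood at 137 CPM in TSDP and 65.1 CPM in Control, and that of Crebrf at 64.5 CPM in TSDP and 106 CPM in Control. For the 9 response genes without Crebrf the median of the log2 fold changes, TSDP over Control, was 0.13, against -0.02 for the 17423 genes tested, with 7 above 0 and 2 below. Of the 4 genes with an exact match to a stress element, Hspa5, Hsp90b1 and Creld2 overlapped between the groups, and Herpud1 did not. The log2 fold changes of Hspa5, Hsp90b1 and Creld2 were -0.10 ± 0.23, -0.17 ± 0.17 and 0.13 ± 0.15 (SE). Whether the form of the element has a part in this was not tested. With edgeR's quasi-likelihood test and Benjamini-Hochberg adjustment at 0.05, 0 of the 10 were called, beside 0% of all genes (0 of 17423). At an unadjusted p under 0.05 there were 2 of 10, beside 13.4% of all genes: Herpud1, higher, beside 8.6%, and Crebrf, lower, beside 4.75%. limma-voom gave 0 and 2 of 10, beside 0% and 15.2%, and 10.6% of all genes were higher and 4.61% lower at that unadjusted p. DESeq2 called 1 of 10, Crebrf, beside 4.12% of all genes, 3.27% higher and 0.854% lower. TSDP and Control values did not overlap for Herpud1 and Manf, higher in TSDP, and for Crebrf, lower in TSDP, 3 of 10 beside 21.8% of all genes, 13% higher and 8.76% lower. As the members were chosen in this comparison, nothing is read from these counts.

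**Figure D1:**
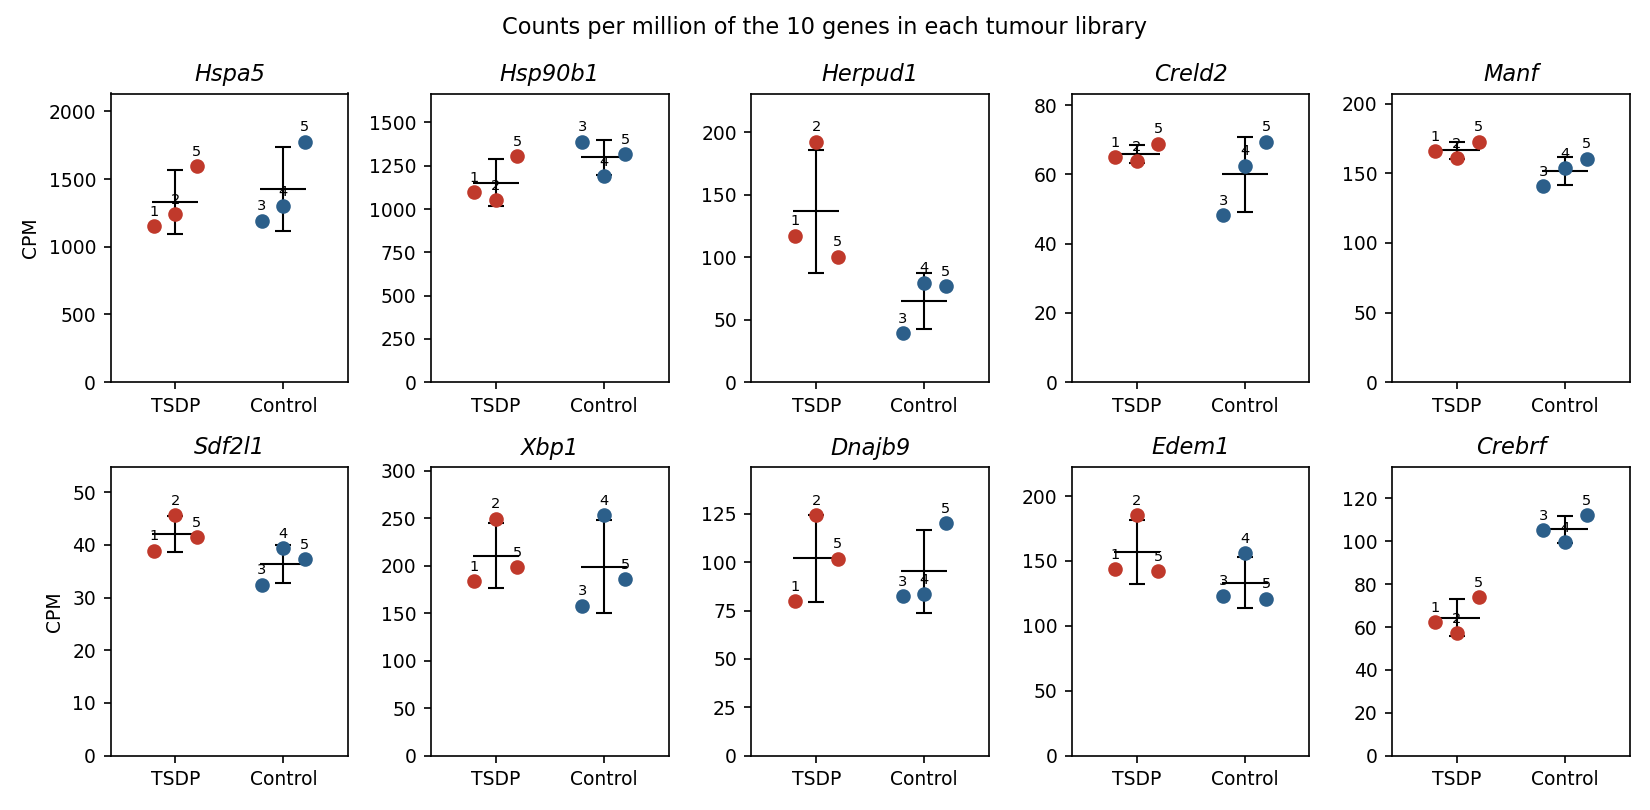
CPM (y axis, linear, from 0) of each of the 10 genes in the 3 TSDP libraries (red) and the 3 Control libraries (blue), numbered by replicate, with the group mean and SD in black. Herpud1 in TSDP lies at 100.3 to 192.5 CPM, above every Control value, Crebrf in TSDP at 57.2 to 73.9 CPM, below every Control value, and the Manf groups part by under 1 CPM.

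The 2 most abundant members were the chaperones of the lumen. Hspa5 (ENSMUSG00000026864) encodes BiP, the HSP70 of the endoplasmic reticulum, which binds unfolded chains and holds the sensors inactive. It had 1152, 1241 and 1596 CPM in TSDP 1, 2 and 5, and 1194, 1301 and 1777 CPM in Control 3, 4 and 5. The groups overlapped widely, and the highest library of each was its replicate 5, numbers that the labels do not tie together. The log2 fold change was -0.10 ± 0.23 (SE). Hsp90b1 (ENSMUSG00000020048) encodes GRP94, the HSP90 of the endoplasmic reticulum. It had 1097, 1050 and 1305 CPM in TSDP 1, 2 and 5, and 1389, 1190 and 1315 CPM in Control 3, 4 and 5. TSDP 5 lay among the Control values and the other two TSDP values below them, with a log2 fold change of -0.17 ± 0.17 (SE).

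Sdf2l1 and Dnajb9 encode partners of BiP. Sdf2l1 (ENSMUSG00000022769), a small protein of BiP complexes, had 38.9, 45.7 and 41.5 CPM in TSDP 1, 2 and 5, and 32.4, 39.4 and 37.3 CPM in Control 3, 4 and 5. Only TSDP 1 and Control 4 were out of order between the groups, with a log2 fold change of 0.21 ± 0.12 (SE). Dnajb9 (ENSMUSG00000014905) encodes ERdj4, a J-domain co-chaperone that returns BiP to IRE1. It had 79.7, 124 and 102 CPM in TSDP 1, 2 and 5, and 82.5, 83.4 and 120.0 CPM in Control 3, 4 and 5. Its lowest library was a TSDP one, and its SD of 22.3 CPM in TSDP and 21.4 CPM in Control exceeded the difference of the means, 101.9 and 95.3 CPM.

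Creld2 and Manf encode small proteins of the lumen that are secreted under stress. Creld2 (ENSMUSG00000023272) had 64.9, 63.9 and 68.8 CPM in TSDP 1, 2 and 5, and 48.2, 62.5 and 69.4 CPM in Control 3, 4 and 5. The TSDP values fell inside the Control range, and Control 3 alone was low. The log2 fold change was 0.13 ± 0.15 (SE), and -0.02 without Control 3. Manf (ENSMUSG00000032575), a neurotrophic factor that binds BiP, had 166, 161 and 173 CPM in TSDP 1, 2 and 5, and 141, 154 and 160 CPM in Control 3, 4 and 5. It was the least variable member, with 1.23-fold between its highest and lowest library. The groups parted by under 1 CPM, and the log2 fold change was 0.13 ± 0.11 (SE).

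Herpud1 and Edem1 act in the degradation of proteins sent back from the endoplasmic reticulum. Herpud1 (ENSMUSG00000031770) encodes HERP, a membrane protein that organises the HRD1 ubiquitin ligase. It had 4284, 6662 and 3595 counts or 117, 193 and 100.3 CPM in TSDP 1, 2 and 5, and 1268, 2594 and 3081 counts or 39.2, 79.5 and 76.6 CPM in Control 3, 4 and 5. Means were 137 ± 49.1 CPM in TSDP and 65.1 ± 22.5 CPM in Control (SD, n = 3 each), and the fitted difference was 1.07 ± 0.36 (SE) on the log2 scale, 0.73 without TSDP 2 and 0.79 without Control 3. The values did not overlap, and the highest library held 4.91 times the lowest. Edem1 (ENSMUSG00000030104), a lectin that hands misfolded glycoproteins to degradation, had 144, 185 and 142 CPM in TSDP 1, 2 and 5, and 123, 156 and 121 CPM in Control 3, 4 and 5. TSDP 2 was the highest and Control 4 the next, with a log2 fold change of 0.24 ± 0.17 (SE).

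Xbp1 (ENSMUSG00000020484), the transcription factor of the IRE1 branch, had 184, 250 and 198 CPM in TSDP 1, 2 and 5, and 158, 253 and 186 CPM in Control 3, 4 and 5. Its top level was in Control 4, the library with pancreatic RNA, and in TSDP 2, the library with most hepatocyte RNA. The groups overlapped throughout, with a log2 fold change of 0.08 ± 0.22 (SE), or 0.29 without Control 4 and -0.07 without Control 3. The part of pancreatic RNA in this level was not tested.

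Crebrf (ENSMUSG00000048249) encodes CREB3 regulatory factor, a nuclear protein that binds the endoplasmic reticulum stress factor CREB3, also called Luman, and promotes its breakdown. Human variants of the gene are known for an effect on body mass. It had 2274, 1980 and 2647 counts or 62.3, 57.2 and 73.9 CPM in TSDP 1, 2 and 5, and 3408, 3245 and 4515 counts or 105.3, 99.5 and 112 CPM in Control 3, 4 and 5. All 3 TSDP values lay below all 3 Control values, with a gap from 73.9 to 99.5 CPM that was wider than the range within either group. Means were 64.5 ± 8.53 CPM in TSDP and 106 ± 6.37 CPM in Control (SD, n = 3 each), and the fitted difference was -0.71 ± 0.13 (SE) on the log2 scale. CREB3 itself was encoded at a similar level in both groups: Creb3 had 37.7, 40.8 and 35.3 CPM in TSDP 1, 2 and 5, and 28.8, 36.6 and 37.3 CPM in Control 3, 4 and 5 (log2 fold change 0.15 ± 0.14 SE, edgeR adjusted p = 0.643).

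Per kilobase of merged exons in GENCODE M21, the mean levels of the members covered a wide range. Hspa5 stood at 314 CPM per kilobase in TSDP and 337 in Control, and Hsp90b1 at 285 and 322. Xbp1 followed at 64.9 in TSDP and 61.3 in Control. Creld2, Manf, Dnajb9 and Sdf2l1 lay between 37.9 and 48.2 CPM per kilobase in TSDP and between 32.8 and 44.0 in Control, and their Control ranges overlapped with those of their neighbours. Herpud1 had a different place in each group: at 58.6 in TSDP it stood next to Xbp1, and at 27.9 in Control it was the third lowest. Edem1 stood at 24.3 in TSDP and 20.7 in Control. Crebrf was the lowest in both, at 7.53 in TSDP and 12.3 in Control, and its Control range of 11.6 to 13.1 did not reach that of Edem1.

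Herpud1 and Crebrf kept their sign in each of the 14 alternative fits, which included leaving out every library in turn, other scaling factors, other filters and other tools. Both were chosen with this comparison known and have groups that do not overlap. A sign kept in refits of the same libraries is therefore no independent support. Crebrf had the narrower range, from -0.83 to -0.64 on the log2 scale, and Herpud1 ran from 0.40 to 1.25. The lowest Herpud1 value, 0.40 ± 0.29 (SE), came from the fit with the hepatocyte score, the mean log2 CPM of the hepatocyte markers, as a covariate. Crebrf stood at -0.65 ± 0.17 (SE) in that fit. As every TSDP score lay above every Control score, that fit cannot firmly separate score from group. Hsp90b1, Manf, Sdf2l1 and Edem1 had the same sign in all 14 but came close to 0: Hsp90b1 ran from -0.28 to -0.03, Manf from 0.03 to 0.16, Sdf2l1 from 0.04 to 0.27 and Edem1 from 0.04 to 0.36. Leaving out TSDP 2 alone put Edem1 at 0.09, and leaving out Control 3 alone put Manf at 0.07. Hspa5 had the other sign in 1 fit, at 0.08 without Control 5, Creld2 and Xbp1 in 3 each and Dnajb9 in 4. The median of the 9 response genes was 0.13 with all libraries, -0.01 without Control 3 and -0.03 with the hepatocyte score.

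**Figure D2:**
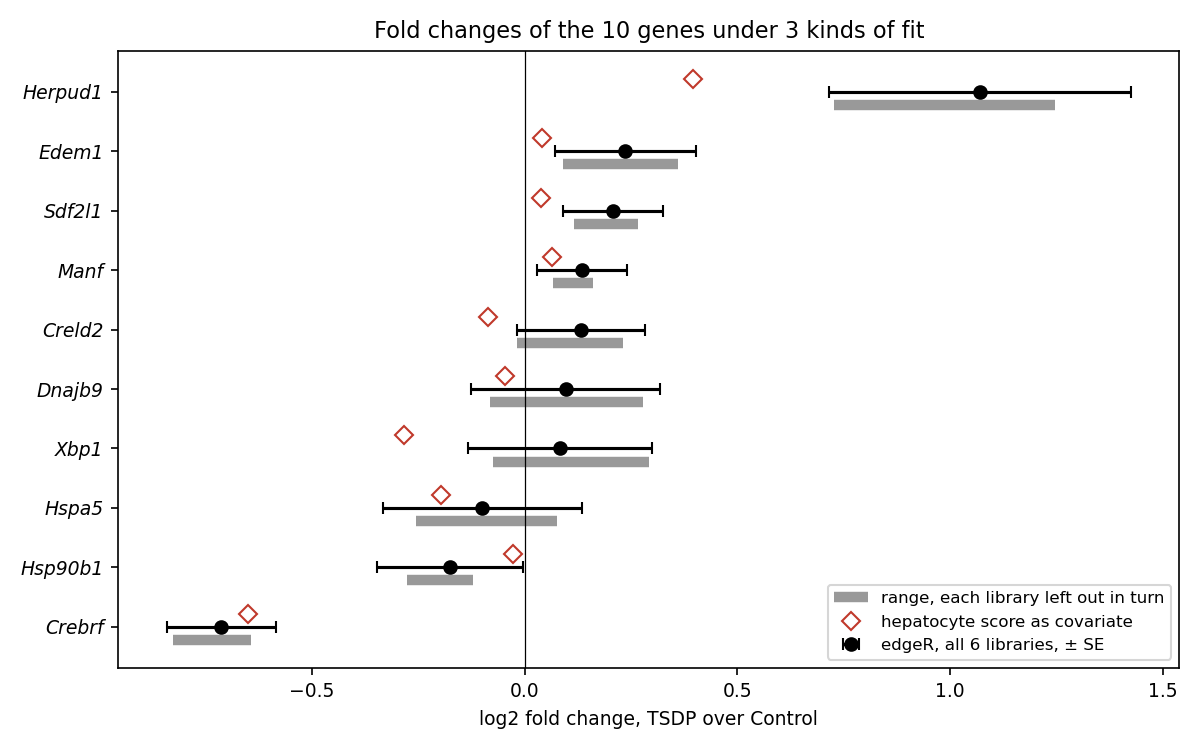
Log2 fold changes (x axis, TSDP over Control) of the 10 genes, with all 6 libraries (black points, bars of 1 SE), the range when each library is left out in turn (grey) and the value with the hepatocyte score as a covariate (open diamonds). Crebrf stays between -0.83 and -0.64 and Herpud1 drops to 0.40 with the covariate.

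The order of the 6 libraries by Herpud1, TSDP 2, TSDP 1, TSDP 5, Control 4, Control 5 and Control 3, was the order of their hepatocyte score, 2.999, 2.02, 1.39, 1.11, -1.15 and -6.37. It was also their order on the first principal component of log2 CPM, which held 75.2% of the variance over all tested genes. The summed T cell markers and Clpx followed it too, so this order is not particular to Herpud1 or to hepatocyte RNA. Hspa5 was not in that order: it was highest in Control 5 and TSDP 5 and lowest in TSDP 1. Herpud1 CPM came to 10.2%, 15.5% and 6.29% of Hspa5 CPM in TSDP 1, 2 and 5, and to 3.28%, 6.11% and 4.31% in Control 3, 4 and 5. Crebrf in Control 3, which had almost no hepatocyte RNA, was at 105.3 CPM and in Control 4, with 2.47% of counts in hepatocyte markers, at 99.5 CPM. TSDP 5 had a smaller share in those markers than Control 4, 2.14%, but a higher score, and 73.9 CPM of Crebrf. In order of falling score, Crebrf stood at 57.2, 62.3, 73.9, 99.5, 112 and 105.3 CPM, rising at each step except the last, to Control 3. All 20 hepatocyte markers had positive log2 fold changes, beside 8244 of the 17423 genes tested. Every TSDP score lay above every Control score, the closest being 1.39 and 1.11, so the covariate fit cannot firmly separate score from group. The part of hepatocyte RNA in the Herpud1 and Crebrf differences was not tested.

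**Figure D3:**
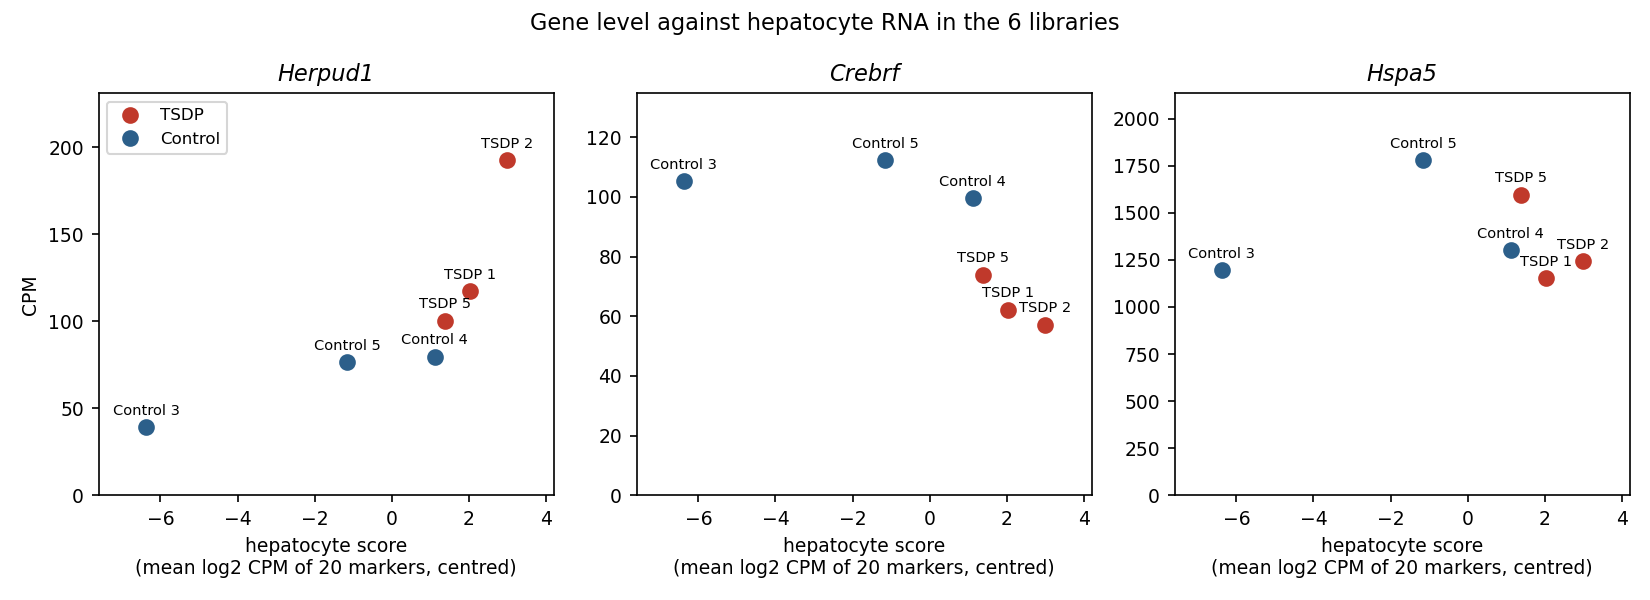
CPM of Herpud1, Crebrf and Hspa5 (y axes, linear, from 0) against the hepatocyte score of each library (x axis, mean log2 CPM of 20 markers, centred on 0), TSDP in red and Control in blue. Herpud1 climbs with the score in the order of the libraries. Crebrf lies at 99.5 to 112 CPM in the 3 Control libraries over scores from -6.37 to 1.11. In the 3 TSDP libraries it falls from 73.9 to 57.2 CPM as the score rises from 1.39 to 2.999.

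Over the 36 pairs of the 9 response genes, Pearson r of log2 CPM across the 6 libraries ran from -0.86 to 0.95 with a median of 0.42, and 10 pairs were negative. The pair with the highest r was Herpud1 and Sdf2l1, and the pair with the lowest was Herpud1 and Hsp90b1. These values describe 6 libraries that share the 2 groups and the tissue mixture. Summed over the 9 genes, TSDP 1, 2 and 5 had 3043, 3313 and 3726 CPM and Control 3, 4 and 5 had 3207, 3319 and 3863 CPM, most of it Hspa5 and Hsp90b1. Without those, the sums were 794, 1022 and 826 CPM in TSDP and 624, 828 and 771 CPM in Control.

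The 5 genes most like each of 2 patterns across the 6 libraries were looked up. Nearest to Crebrf by Pearson r of log2 CPM were Sprtn, a protease of DNA-protein crosslink repair, at 0.99, Dedd2, Ubtd2 and Hic2, each at 0.99, and Ston1 at 0.98. Sprtn averaged 32.5 CPM in TSDP and 42.1 CPM in Control. Because the Crebrf groups do not overlap, any gene with a gap of the same sign scores high here. Nearest to the mean log2 CPM of the other 9 members were Sra1 at 0.99, Ficd at 0.99, Nefh, Cyp4b1 and Trim30a, each at 0.98. Ficd encodes the enzyme that adds and removes AMP on BiP, and it had 10.9, 15.0 and 11.8 CPM in TSDP 1, 2 and 5, and 7.32, 11.1 and 12.3 CPM in Control 3, 4 and 5.

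The rest of the unfolded protein response was taken as 83 genes in 5 lists of sensors, chaperones, degradation, secretory capacity and the PERK branch. By edgeR's quasi-likelihood test 0 of 82 tested genes were higher and 0 lower, beside 0% of all genes (0 of 17423). At an unadjusted p under 0.05 there were 6 higher and 1 lower, 7 of 82 beside 13.4% of all genes, and by limma-voom 5, beside 15.2%. DESeq2 called 2, Creb3l3 higher and Ero1l lower, beside 4.12% of all genes (3.27% higher, 0.854% lower). Their median log2 fold change was 0.04 beside -0.02 for all genes, and 78 of the 82 lay within 0.5 of 0. Groups did not overlap for 12 higher and 2 lower, beside 13% and 8.76% of all genes. These lists were written with earlier results of these data known.

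The sensors and their factors, 14 genes tested, had a median of -0.05. Ern1, which encodes the IRE1 alpha kinase and nuclease, had 162, 121 and 187 CPM in TSDP 1, 2 and 5, and 202, 153 and 221 CPM in Control 3, 4 and 5 (log2 fold change -0.29 ± 0.21 SE, edgeR adjusted p = 0.566). Atf6 averaged 163 ± 22.5 CPM in TSDP and 197 ± 39.0 CPM in Control, and Eif2ak3, which encodes PERK, 41.6 ± 5.72 and 39.8 ± 6.37 CPM (SD, n = 3 each), with adjusted p of 0.538 and 0.881 by edgeR. Each overlapped between the groups. Creb3l3 had the smallest p. It encodes CREBH, a relative of CREB3 and ATF6 made mainly in liver and gut, and had 68.7, 108 and 71.9 CPM in TSDP 1, 2 and 5, and 34.9, 47.5 and 35.1 CPM in Control 3, 4 and 5. The groups did not overlap, and differed by 1.08 ± 0.22 on the log2 scale (SE; edgeR adjusted p = 0.326, from 0.183 to 0.85 in the other edgeR and limma fits, DESeq2 adjusted p = 0.00165). With the hepatocyte score as a covariate its log2 fold change was 0.80.

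Of 24 other chaperones, co-chaperones and disulfide isomerases, 16 had positive and 8 negative log2 fold changes, with a median of 0.08. Pdia3, the disulfide isomerase of glycoprotein folding and the most abundant of them, averaged 1188 ± 92.7 CPM in TSDP and 1143 ± 137 CPM in Control (SD, n = 3 each), with an adjusted p of 0.902 by edgeR. Ero1l, now called Ero1a, the oxidase that recharges disulfide isomerases and a gene also induced by hypoxia, stood apart. It had 86.3, 134 and 173 CPM in TSDP 1, 2 and 5, and 310, 201 and 303 CPM in Control 3, 4 and 5. The groups did not overlap, and differed by -1.05 ± 0.30 on the log2 scale (SE; edgeR adjusted p = 0.326, from 0.183 to 0.901 in the other edgeR and limma fits, DESeq2 adjusted p = 0.0194). Ero1l was named for its small p, and kept its sign in 14 alternative fits of the same libraries, from -1.30 to -0.72.

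Degradation genes, 17 tested, had a median of 0.06 and all lay within 0.5 of 0. Derl2, a channel protein of retrotranslocation, averaged 92.4 ± 11.6 CPM in TSDP and 75.4 ± 0.478 CPM in Control, and Vcp, the ATPase that pulls proteins out of the membrane, 419.8 ± 39.6 and 402 ± 54.6 CPM (SD, n = 3 each), with adjusted p of 0.371 and 0.876 by edgeR. Translocation and secretory genes, 18 tested, had a median of 0.04. Ostc, a subunit of the oligosaccharyltransferase, averaged 83.7 ± 4.76 CPM in TSDP and 69.8 ± 4.23 CPM in Control, and Rrbp1, a ribosome-binding membrane protein, 721 ± 54.5 and 795 ± 27.3 CPM (SD, n = 3 each), with adjusted p of 0.365 and 0.675 by edgeR.

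Genes of the PERK branch had a median of -0.10, with 3 of 10 positive. By edgeR 0 were called and 0 had an unadjusted p under 0.05, beside 0% and 13.4% of all genes. Atf4 had 242, 163 and 222 CPM in TSDP 1, 2 and 5, and 241, 193 and 281 CPM in Control 3, 4 and 5. Ddit3, which encodes CHOP, had 42.1, 24.3 and 44.9 CPM in TSDP 1, 2 and 5, and 37.7, 38.1 and 68.2 CPM in Control 3, 4 and 5. TSDP 2 was the lowest library for both, and their groups overlapped (edgeR adjusted p = 0.708 and 0.629). Chac1, a glutathione-degrading enzyme induced through ATF4, averaged 7.97 ± 3.28 CPM in TSDP and 4.94 ± 1.52 CPM in Control (SD, n = 3 each), with an adjusted p of 0.449 by edgeR.

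Chaperone systems outside the endoplasmic reticulum were counted in the same way. By edgeR 0 of 10 genes were called for cytosolic heat shock and 0 of 8 for mitochondria, beside 0% of all genes. At an unadjusted p under 0.05 there was 1 gene each by edgeR, beside 13.4% of all genes, and 1 each by limma-voom, beside 15.2%. DESeq2 called 1 each, beside 4.12%. The heat shock list had a median of -0.11 and the mitochondrial list 0.08. Hspa1a, an inducible HSP70 whose reads can be shared with its near-identical copy Hspa1b, had 15.4, 9.88 and 17.1 CPM in TSDP 1, 2 and 5, and 6.39, 3.71 and 5.24 CPM in Control 3, 4 and 5 (log2 fold change 1.47 ± 0.30 SE, edgeR adjusted p = 0.326). Clpx, the unfoldase of a mitochondrial protease, had 149.98, 230.2 and 111 CPM in TSDP 1, 2 and 5, and 28.0, 83.1 and 36.3 CPM in Control 3, 4 and 5 (log2 fold change 1.74 ± 0.48 SE, edgeR adjusted p = 0.326), and 0.93 in the fit with the hepatocyte score. The most abundant gene of each list differed less: Hsp90ab1, a constitutive cytosolic HSP90, averaged 2124 ± 340.0 CPM in TSDP and 2196 ± 234 CPM in Control, and Hspa9, the mitochondrial HSP70, 598 ± 90.0 and 671 ± 142 CPM (SD, n = 3 each), with adjusted p of 0.932 and 0.753 by edgeR.

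**Figure D4:**
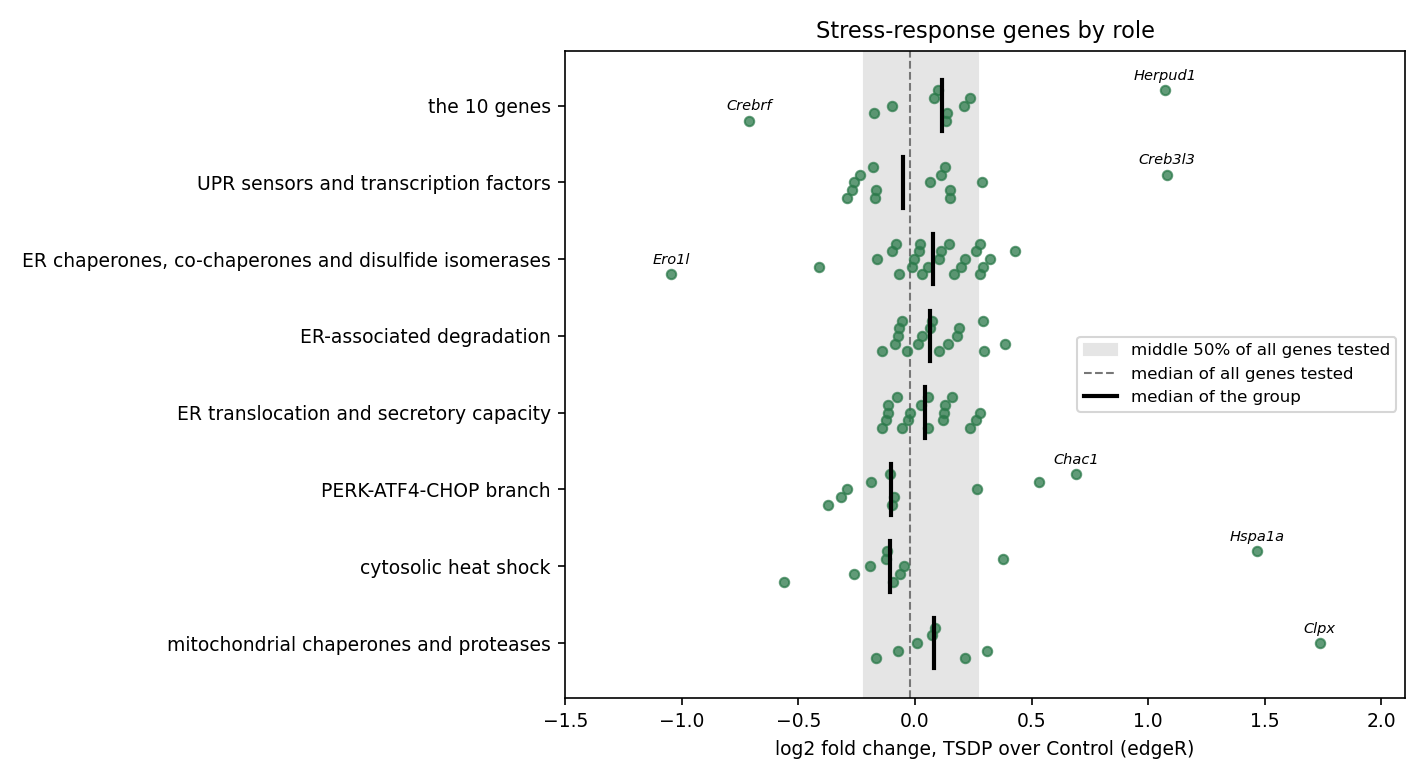
Log2 fold changes (x axis, TSDP over Control, edgeR) of the 10 genes and of the other tested genes of 7 stress-response lists, 1 point per gene, with the median of each list in black and the interquartile range of all 17423 genes in grey. The grey band runs from -0.22 to 0.27, every row has points outside it, and the points farthest out are Clpx at 1.74, Hspa1a at 1.47, Creb3l3 at 1.08, Herpud1 at 1.07, Ero1l at -1.05, Crebrf at -0.71 and Chac1 at 0.69.

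Genes can also be taken by promoter sequence alone. Apart from the 4 members, 45 genes had ERSE or ERSE-II in a window, and 25 of them were tested. The median of their log2 fold changes was 0.09, from -0.40 to 1.78, with 14 positive and 11 negative, beside the median of -0.02 for all genes. By edgeR 0 were called, beside 0% of all genes, and 3 of 25 had an unadjusted p under 0.05, beside 13.4%. Of the 25, those with ERSE-II went both ways, from Gm46430 at -0.30 ± 0.14 (SE) to Rcl1 at 0.94 ± 0.27 (SE). Calr, Canx, Pdia6, Dnajc3, Dnajb11, Syvn1 and Derl3, which also belong to the lists above, were among the 25. Calr, the calcium-binding chaperone calreticulin, had a log2 fold change of 0.20 ± 0.16 (SE), Canx, its membrane-bound relative calnexin, -0.16 ± 0.19 (SE), and Dnajb11, a co-chaperone of BiP with ERSE-II, 0.29 ± 0.10 (SE), with edgeR adjusted p of 0.602, 0.724 and 0.348.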

How the data were processed

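Per the labels' protocols, RNA was extracted with RNeasy columns and libraries made with a KAPA mRNA kit. The tools listed, per the submitters' processing notes, are HISAT2 2.1.0, featureCounts 2.0.0 and Trimmomatic 0.38, with MultiQC, FastQC and CASAVA. Their build, annotation and strand setting were not given in the sources used here. The deposited count table holds raw counts. The deposited normalized signal is each library's counts over a single constant (departing by at most 5.1e-15 of the value) and supplied symbols only. No column belonged to another sample. Groups came from titles; only titles set replicates apart, and p-values then reflect no more than the spread among these libraries, which may be technical. No pair of libraries agreed within counting noise.

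edgeR 4.0.16 (R 4.3.3) used TMM factors, filterByExpr (minimum count 10), legacy quasi-likelihood F tests with Benjamini-Hochberg adjustment (17423 genes, threshold 0.05). The SE is the log2 fold change over the root of F. CPM uses TMM-scaled library sizes. Alternatives were limma-voom (limma 3.58.1) and DESeq2 1.42.0, other scaling and filters, the hepatocyte score as a covariate and each library left out. Steps were tested on simulated counts with 2-fold and 4-fold changes put in. At the 0.05 threshold edgeR recovered 10.3% of the 2-fold and 80.7% of the 4-fold changes, and 3.63% of its calls were false. DESeq2 recovered 53.3% and 95.7%, and 30.6% of its calls were false. The simulation changed few genes, drew each gene independently with the spread estimated by edgeR, and held no tissue mixture. These shares therefore do not carry over to the calls in the real libraries. Members and lists were chosen with earlier results of these data known. Named genes were the members, 8 stated genes, the gene with the smallest p and the most abundant gene of each list, and the 5 likest genes of 2 patterns; most marker genes of other cell types are given as sums. Others were named after their values were seen. The list symbols Ero1a, Ero1b and Vimp were matched through RefSeq synonyms. Exon lengths are from GENCODE M21, which holds 55450 of the 55536 gene IDs.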

Additional observations from a re-analysis of the deposited data

How the results depend on the processing

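No paired analysis was possible because the labels tie no TSDP mouse to a Control mouse. Without a filter on low counts edgeR called 1 gene, and DESeq2 called 661 (524 higher, 137 lower), against 0 by edgeR; of the other response genes DESeq2 called 2. Leaving out each library in turn gave 0 calls in both sets. The median of the 9 response genes ran from -0.01 to 0.17 with each library left out, and Crebrf from -0.83 to -0.64. Of 140 values of the 10 members under alternatives, 131 moved by less than 1 SD between replicates. The other 9 were values of Creld2, Herpud1, Hsp90b1, Sdf2l1 and Xbp1 with the hepatocyte score, and of Creld2, Dnajb9, Hspa5 and Manf without both Control 3 and Control 4, a fit chosen after the data were seen that leaves 1 Control library, assumed to vary like the others. There Hspa5 stood at -0.44 and Herpud1 at 0.80. The causes were not tested. The count of 131 is no measure of stability, as the refits reuse the same counts. With 3 libraries a group, leaving out 1 moves a group mean of log2 CPM by less than the SD between replicates, whatever the values. The hepatocyte share differed by 1.81 to 3.86 percentage points with each library left out. With 3 libraries a group, differences of the size of most members' could not be told from the spread.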

Other observations

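Marker lists of other cell types were summed per library. T cell markers, 8 genes with positive log2 fold changes in 8 of 8, summed to 92.0, 96.1 and 87.8 CPM in TSDP 1, 2 and 5, and to 27.6, 81.3 and 65.0 CPM in Control 3, 4 and 5. Fibroblast markers summed to 5188, 8110 and 4229 CPM in TSDP and 3032, 5466 and 6200 CPM in Control, endothelial markers to 237, 353 and 228 CPM and 224, 203 and 151 CPM, and macrophage markers to 2103, 2752 and 2037 CPM and 2090, 2269 and 1410 CPM. Log2 fold changes were positive in 7 of 7 fibroblast, 6 of 6 endothelial and 6 of 8 macrophage markers, beside 8244 of 17423 genes tested. The 9 plasma cell markers summed to 419, 522 and 541 CPM in TSDP 1, 2 and 5, and to 339.7, 419 and 616 CPM in Control 3, 4 and 5, which overlap, with 4 of the 7 tested positive and 3 negative. Sdc1, the most abundant of them, averaged 415 CPM in TSDP and 417 CPM in Control (edgeR adjusted p = 0.992). Jchain, the one with the smallest p, which encodes the joining chain of secreted antibodies, had 10.7, 57.0 and 39.2 CPM in TSDP 1, 2 and 5, and 0.556, 2.91 and 4.35 CPM in Control 3, 4 and 5 (edgeR adjusted p = 0.326). Tnfrsf17, a plasma cell receptor gene, was at 0 in Control 3 and Control 5, and the lowest marker of the other 4 libraries was at 0.0274 to 0.0613 CPM. Plasma cells are rich in endoplasmic reticulum, and their part in the levels of the response genes was not tested.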
